A study of Mus musculus with 5 samples.

Results

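Zinc finger genes with a Zfp symbol were examined through the ChIP-seq peaks that carry their names. Peaks are the stretches where DNA recovered with an antibody is enriched, and each deposited list gives their positions and, for most, a gene name. Members were all peaks whose name begins with Zfp followed by a digit, which gave 1260 of 89451 peaks. They comprised 330 of the 23244 ZHX1 peaks of control cells, 194 of the 14662 hnRNPA1 peaks of control cells and 736 of the 51545 hnRNPA1 peaks of Zhx1-KO cells. Below, 3 values given in list order follow this sequence.

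All samples were cardiac progenitor (CP) cells differentiated from 46C mouse embryonic stem cells. 46C-Ctrl was the control line, and Zhx1-KO cells came from 46C cells cut by CRISPR/Cas9 with guides near the start and stop sites of Zhx1. Whether Zhx1-KO is a single clone is not given in the sources used here. ZHX1, a zinc finger and homeobox protein, was precipitated in 46C-Ctrl, and hnRNPA1, an RNA-binding protein best known from splicing, in both lines. Each group had 1 library, so no difference between lists could be tested, and the input libraries were not analysed here. No read counts or scores are listed, which leaves the depth of each library unknown. Ranges given after a share are 95% Wilson intervals and reflect counting error alone. A peak list carries no expression values, so the CP label could not be checked against marker genes.

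Mammalian Zfp genes encode proteins whose zinc fingers, short folds each holding a zinc ion, usually read DNA and sometimes RNA. Many carry a KRAB domain, which recruits the corepressor TRIM28 and with it the histone methyltransferase SETDB1, and silence retrotransposons in embryonic stem cells. The family grew by tandem duplication, so its genes often stand side by side in clusters, and the finger array of one gene, mostly encoded by a single last exon, resembles that of the next.

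Sequences at which peaks of all 3 lists overlapped are shown first, for 3 of the 4 such positions, because they carry the overlap described later. They are the forward strand of GRCm38 over the bases common to the 3 lists, read from the RefSeq copy of the assembly. Copy number is given as the median number of places in GRCm38, on either strand, that hold each 32-base word of a peak. The position named Zfp825 lay outside the gene at chr13:74530447-74530668, and capitals mark ACAGC, which occurs 33 times in its 222 bases. The peaks that cover these bases had median copy numbers of 9, 18 and 23 in list order. A further Zhx1-KO hnRNPA1 peak of the same merged position, next to these bases, had 8.
Zfp825: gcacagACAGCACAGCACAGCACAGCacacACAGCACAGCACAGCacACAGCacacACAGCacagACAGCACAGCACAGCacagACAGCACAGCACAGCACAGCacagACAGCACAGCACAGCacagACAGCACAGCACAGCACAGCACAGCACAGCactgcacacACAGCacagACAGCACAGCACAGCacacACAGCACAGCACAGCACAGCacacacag

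Capitals in the next 2 sequences mark TAGGG on either strand, which corresponds to the RNA letters that hnRNPA1 prefers. The position named Zfp960 (chr17:16950313-16950591) lay 114 kb from a Zfp960 transcription start site (TSS), entirely in soft-masked repeat sequence with copy numbers of 276, 314 and 319 in list order. The position named Zfp979 (chr4:147669120-147669284) lay outside the gene, 26.7 kb from a TSS, in soft-masked sequence with copy numbers of 701, 64 and 61 in list order.
Zfp960: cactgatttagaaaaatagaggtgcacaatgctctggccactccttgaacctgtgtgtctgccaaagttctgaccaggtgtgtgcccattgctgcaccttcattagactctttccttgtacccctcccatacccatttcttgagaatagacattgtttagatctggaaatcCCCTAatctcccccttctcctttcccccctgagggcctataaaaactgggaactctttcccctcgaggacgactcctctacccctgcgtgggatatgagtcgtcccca
Zfp979: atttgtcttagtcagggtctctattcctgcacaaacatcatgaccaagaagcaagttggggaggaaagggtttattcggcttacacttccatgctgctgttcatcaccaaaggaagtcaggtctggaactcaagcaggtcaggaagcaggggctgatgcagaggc
Of these 2 sequences, that of Zfp960 held TAGGG, in 1 place. Every peak at these 3 of the 4 all-list positions had 2 or more copies, and the 3 do not stand for the position that is not shown.

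A further pair of sequences was chosen after their values were seen. The first lay over coding sequence of Zfp600 (chr4:146195586-146195813), where a ZHX1 and a Zhx1-KO hnRNPA1 peak overlapped. Its capitals mark the DNA that encodes the conserved linker between adjacent fingers, searched as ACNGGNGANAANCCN, which occurs in 2 places. The second lay in an intron of Zfp810 (chr9:22306279-22306454), where the ZHX1 and hnRNPA1 peaks of control cells overlapped in single-copy sequence. The centres of the Zfp810 peaks were 0.461 kb (ZHX1) and 0.633 kb (hnRNPA1) from a TSS. Capitals there mark TAGGG.
Zfp600: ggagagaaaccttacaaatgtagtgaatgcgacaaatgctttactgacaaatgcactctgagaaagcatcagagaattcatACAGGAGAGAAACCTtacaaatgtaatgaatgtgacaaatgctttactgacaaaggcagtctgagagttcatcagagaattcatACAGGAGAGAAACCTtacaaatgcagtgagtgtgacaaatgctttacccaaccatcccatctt
Zfp810: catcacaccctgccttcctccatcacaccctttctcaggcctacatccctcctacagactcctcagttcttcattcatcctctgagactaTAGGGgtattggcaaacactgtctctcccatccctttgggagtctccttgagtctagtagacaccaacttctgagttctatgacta

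Zfp peaks made up a similar share of each list. They were 1.42% (1.28% to 1.58%) of control ZHX1 peaks, 1.32% (1.15% to 1.52%) of control hnRNPA1 peaks and 1.43% (1.33% to 1.53%) of Zhx1-KO hnRNPA1 peaks and the 3 intervals overlapped. Of 397 protein-coding Zfp genes in RefSeq, 163 (41.1%, 36.3% to 46.0%) were named by a control ZHX1 peak, where 40.5% of all protein-coding genes were. For control hnRNPA1 117 Zfp genes were named (29.5%, 25.2% to 34.1%) beside 31.2% of all genes, and for Zhx1-KO hnRNPA1 234 (58.9%, 54.0% to 63.7%) beside 57.7%. All 3 intervals held the share of all protein-coding genes. Pseudogenes and genes outside the RefSeq set brought the Zfp names with a peak to 291.

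By name, 68 Zfp genes occurred in all 3 lists, 6 in both control lists only, 58 in the ZHX1 and Zhx1-KO lists only and 32 in both hnRNPA1 lists only. A further 33 names were found in the ZHX1 list alone, 13 in control hnRNPA1 alone and 81 in Zhx1-KO hnRNPA1 alone, the longest list. Apart from the share that follows, this split was not made over all genes. The counts are therefore not read as a result about Zfp genes. Of the 74 names shared by both control lists, 68 (91.9%, 83.4% to 96.2%) also had a peak in the Zhx1-KO list, beside 89.7% of all protein-coding genes named in both control lists, so Zfp names recurred at about the background share.

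A minority of the Zfp peaks lay in gene clusters. A cluster was at least 5 Zfp genes whose neighbouring starts were within 500 kb in the GENCODE annotation, which gave 18 clusters with 194 genes over 13.9 Mb of sequenced bases. They held 35.8% (30.8% to 41.1%) of the control ZHX1 Zfp peaks, 29.4% (23.4% to 36.1%) of the control hnRNPA1 ones and 35.2% (31.8% to 38.7%) of the Zhx1-KO hnRNPA1 ones. Most members were thus centred outside the clusters, among them peaks that carry the name of a cluster gene, such as those of Zfp84. The name of a zinc finger cluster therefore fits only a part of them.

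**Figure D1:**
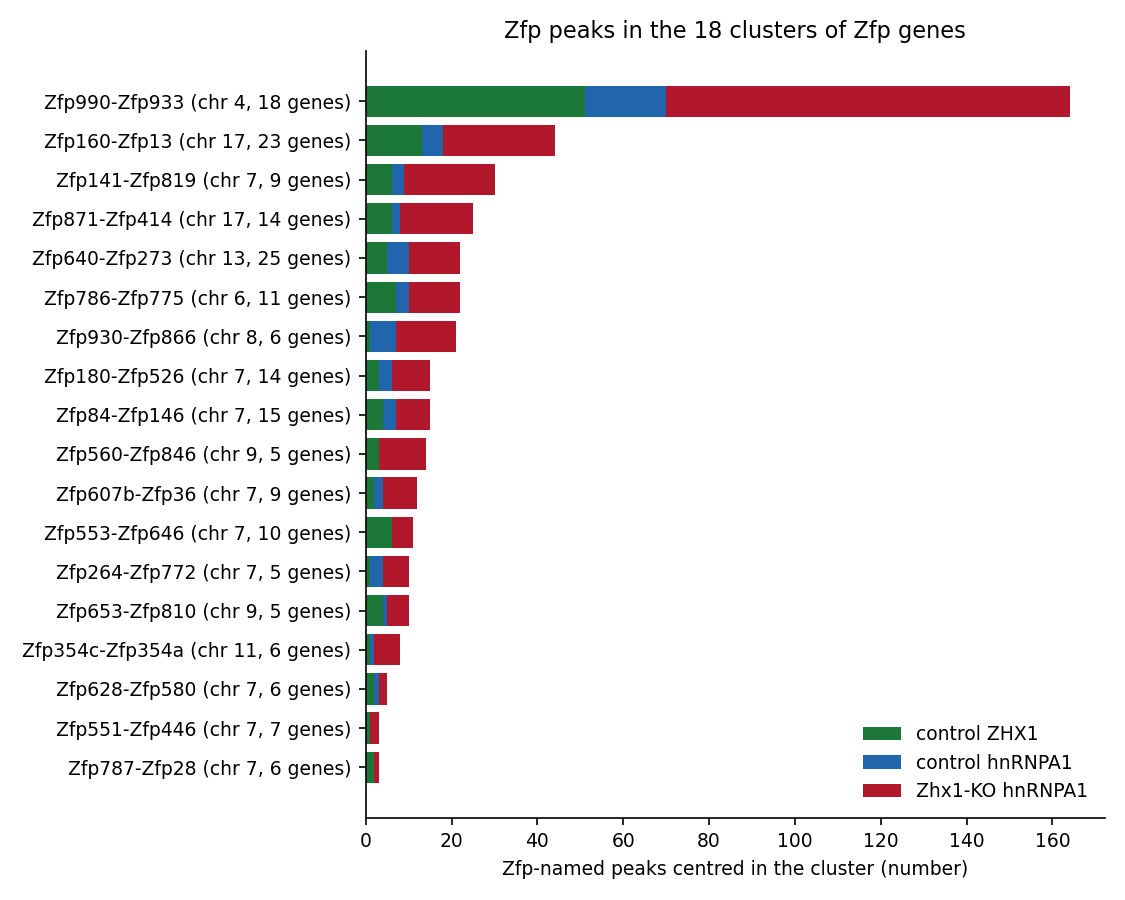
Number of Zfp-named peaks (horizontal axis) in each of the 18 clusters, named by first and last gene, with the 3 lists stacked in colour. The Zfp990-Zfp933 cluster of chromosome 4 held 164 peaks and the next cluster 44.

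A single cluster held the most peaks in every list. It spans Zfp990 to Zfp933 at chr4:145510759-147848366, with 18 Zfp genes and 1.91 Mb of sequenced bases. It held 51 Zfp peaks of control ZHX1, 19 of control hnRNPA1 and 94 of Zhx1-KO hnRNPA1. With peaks of any name the numbers were 109, 48 and 218, or 57.2, 25.2 and 114 peaks per Mb. Densities on the rest of chromosome 4 were 8.97, 5.68 and 20.2 per Mb in list order. The other clusters together held 13.5, 7.08 and 28.0 per Mb, and the genome outside clusters 8.72, 5.52 and 19.4. The cluster was picked for its number of peaks, so these densities describe it and were not tested.

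The clusters that followed held fewer peaks per Mb in every list. Zfp160-Zfp13 (chr17:21008903-23599487, 23 genes) held 13, 5 and 26 Zfp peaks in list order, led by Zfp947 (8 peaks) and Zfp946 (7), and its total density was 1.41, 1.33 and 1.27 times that of the genome. Zfp141-Zfp819 (chr7:42473386-43618285, 9 genes) held 6, 3 and 21. Zfp871-Zfp414 (chr17:32765496-33631779, 14 genes) held 6, 2 and 17, led by Zfp414, whose 6 peaks were all multi-copy (2 or more copies). Zfp640-Zfp273 on chromosome 13, the cluster with the most genes (25), held 5, 5 and 12 at chr13:66669928-67827002, led by Zfp708 (5) and Zfp85 (3). Its total of 22 was equalled by Zfp786-Zfp775 (chr6:47819266-48623227, 11 genes), with 7, 3 and 12 and 7 of them named Zfp746. The plot of Zfp peaks by cluster gives the full order. Over chromosomes, 4 held the most Zfp peaks (226), followed by 7 (185) and 17 (128).

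**Figure D2:**
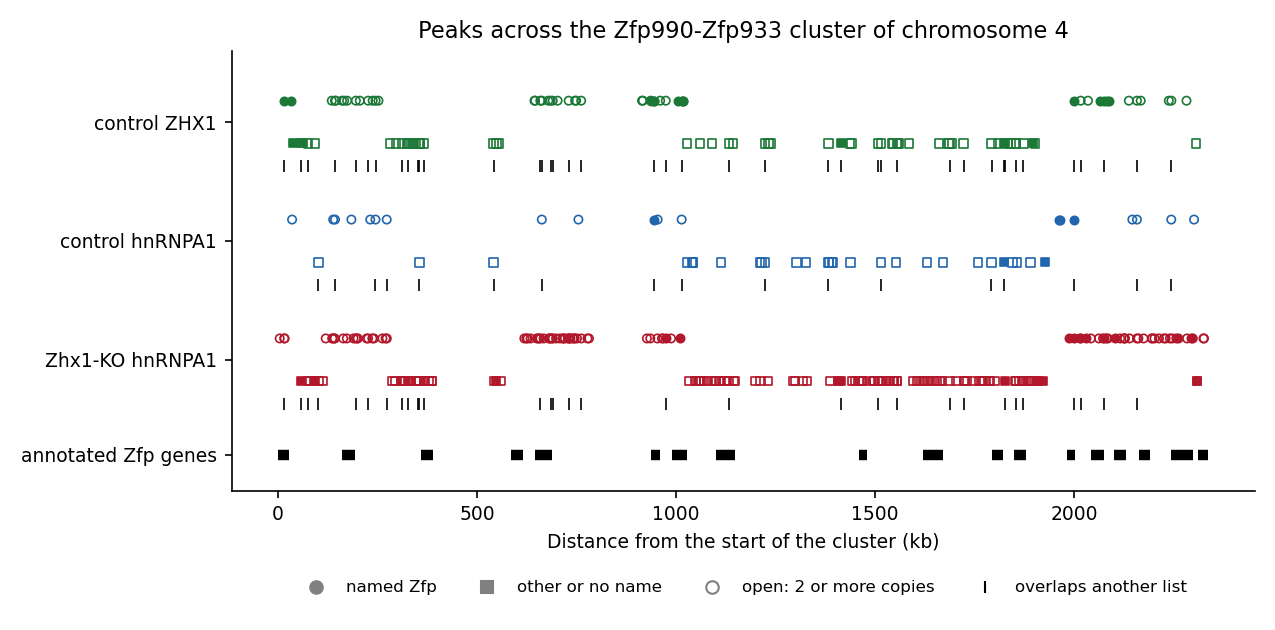
Peaks of each list across the Zfp990-Zfp933 cluster by distance from its start in kb, with circles for Zfp-named peaks, squares for other names, open symbols for sequence of 2 or more copies, ticks for peaks that overlap another list and black bars for annotated Zfp genes. Most symbols are open, and named Zfp peaks leave gaps that squares fill.

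Within the chromosome 4 cluster the names in the lists followed the annotation only in part. Of its 18 genes, 12 gave their name to peaks. Zfp986, Zfp987, Zfp993, Zfp989, Zfp988 and Zfp978 gave theirs to none, yet all but Zfp987 had peaks within the gene, under other names or without a name. Zfp993 held 10 peaks named 1700095A21Rik, Zfp978 held 10 without a name, Zfp986 held 6 named Gm13238, Zfp989 held 4 named Rex2 and Zfp988 held 2 without a name. Counts by name therefore leave out peaks that lie within these genes. The most frequent other names in the cluster were 1700095A21Rik (38 peaks), Rex2 (37), 4933438K21Rik (37) and Gm13238 (30), and 42 peaks had no name.

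Zfp991 had the most peaks of any Zfp name and none of them lay in its gene. It was given to 8, 4 and 22 peaks in list order. All 34 fell into 2 blocks of the same cluster, 14 at chr4:145733522-145784247 and 20 at chr4:146218925-146292190. The annotated gene lies at chr4:147132038-147180579, 840 to 1398 kb away. Its own 10 peaks (1, 1 and 8) were named 4933438K21Rik. The blocks hold 4 and 6 annotated genes, all of them long non-coding RNAs or pseudogenes such as Vmn2r-ps15 and Vmn2r-ps17, and 0 protein-coding genes. Every Zfp991 peak was multi-copy, with copy numbers of 3 to 8 in the first block and 3 to 7 in the second.

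**Figure D3:**
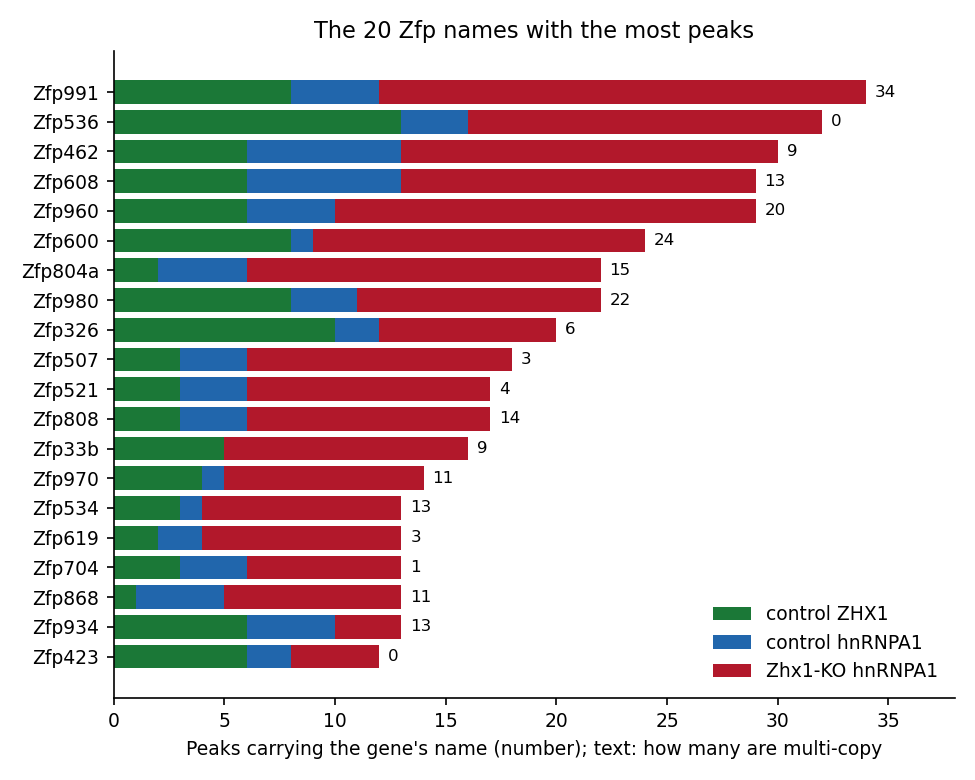
Number of peaks (horizontal axis) that carry each of the 20 most frequent Zfp names, with the lists stacked in colour and the number of multi-copy peaks written at the end of each bar. All 34 Zfp991 peaks and 0 of the 32 Zfp536 peaks were multi-copy.

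After Zfp991, the names with the most peaks included long genes and names whose peaks were mostly multi-copy. Zfp536, a zinc finger repressor of neuronal differentiation whose gene spans 302 kb on chromosome 7, had 13, 3 and 16 peaks in list order, and 0 were multi-copy. Of these 32 peaks 16 lay in the gene. Zfp462, a nuclear zinc finger protein needed for normal brain development, had 6, 7 and 17 peaks, of which 9 were multi-copy. The plot of peaks per gene shows both kinds side by side.

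Zfp608 had 6, 7 and 16 peaks spread over 829 kb of chromosome 18, and 0 of them lay inside the gene. Zfp960 had 6, 4 and 19 over 619 kb, of which 4 lay in the gene and 20 were multi-copy. Zfp804a, the mouse counterpart of a human gene known from schizophrenia genetics, had 2, 4 and 16, with 2 in the gene and 15 multi-copy. Names were thus often given over long distances. The median distance of a Zfp peak to a TSS of its named gene was 19.7, 25.4 and 21.1 kb in list order. Over all peaks it was longer, at 29.7, 28.8 and 33.1 kb, so such distances were not particular to Zfp names.

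Zfp600 and Zfp980 of the chromosome 4 cluster had 8, 1 and 15 peaks and 8, 3 and 11 peaks, and every one was multi-copy. Zfp326, which encodes a subunit of a complex linking transcript elongation to splicing, had more peaks in the control ZHX1 list (10) than in control hnRNPA1 (2) or Zhx1-KO hnRNPA1 (8). Zfp507 had 3, 3 and 12. A single peak was found for 96 of 165 Zfp names in the control ZHX1 list, 79 of 119 in control hnRNPA1 and 100 of 239 in Zhx1-KO hnRNPA1. Names with 3 or more peaks numbered 36, 21 and 90 in list order. The same split was not made over all gene names, so it is not read as a result about Zfp names.

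The widest peaks stood in the place of the strongest, since the lists give no score. In the control ZHX1 list they were Zfp600 (721 bases), Zfp934 (718), Zfp9 (698), Zfp990 (655) and Zfp600 again (636). In control hnRNPA1 they were the all-list position of Zfp825 (764), Zfp418 (683), Zfp362 (584), Zfp808 (547) and Zfp608 (544). In Zhx1-KO hnRNPA1 they were Zfp954 (957), Zfp936 (908), Zfp462 (756), Zfp600 (747) and Zfp619 (684). Of these 15 peaks, the second Zfp600 peak of ZHX1 and the Zfp825 peak overlapped a peak of another list. Median widths of Zfp peaks were 278, 253 and 278 bases, beside 259, 257 and 271 over all peaks.

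Among 16 Zfp genes of known role, 15 were named by at least 1 peak, 11 in control ZHX1, 10 in control hnRNPA1 and 12 in Zhx1-KO hnRNPA1. Beside these stand 69.7% of all protein-coding genes named in any list and the shares per list given above (40.5%, 31.2% and 57.7%). The genes were listed for their roles, not drawn at random. Zfp57, which protects methylation at imprinted regions, had none. Zfp42, the pluripotency marker also called Rex1, had a ZHX1 peak in an intron at chr8:43305424-43305871, 1.29 kb from a TSS, and its control hnRNPA1 peak lay 97.9 kb away. None of its 4 Zhx1-KO hnRNPA1 peaks was within 2 kb of a TSS. Zfp809, which silences retroviruses in embryonic stem cells, had a ZHX1 peak 1.81 kb from a TSS at chr9:22223609-22224194 and a Zhx1-KO hnRNPA1 peak in an intron 9.03 kb from one. Zfp568, a KRAB repressor needed in early embryos, had a control hnRNPA1 peak over the start of the gene at chr7:29983830-29984254, 0.0870 kb from a TSS, and its Zhx1-KO hnRNPA1 peak was intronic at 30001076 to 30001438.

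Zfp260, a transcription factor described in heart muscle, had a single peak, of control hnRNPA1, in the non-coding part of an exon at chr7:30098670-30098892. Zfp36, Zfp36l1 and Zfp36l2 encode RNA-binding proteins that speed mRNA decay. Zfp36 (tristetraprolin) had 1 ZHX1 peak 1.23 kb from a TSS, Zfp36l1 had 2 ZHX1 peaks and 1 of Zhx1-KO hnRNPA1, and Zfp36l2 had 3 and 4. All 3 genes had 0 control hnRNPA1 peaks. One Zfp36l1 peak of ZHX1 (chr12:80110241-80110767) and one Zfp36l2 peak of Zhx1-KO hnRNPA1 (chr17:84186081-84186304) lay over coding sequence.

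Zfp423 and Zfp521, related partners of EBF transcription factors, had 6, 2 and 4 peaks and 3, 3 and 11 peaks. Of the ZHX1 peaks of Zfp423, 3 stood close together in an intron between 87755942 and 87758245 on chromosome 8, and the nearest Zhx1-KO hnRNPA1 peak began at 87759483. Zfp281, a regulator of pluripotency, had 1 Zhx1-KO hnRNPA1 peak 16.3 kb from a TSS, Zfp148 had 1 control and 2 Zhx1-KO hnRNPA1 peaks, Zfp217 had 1, 1 and 2, and Zfp143, an activator of small RNA genes, had 1 of control hnRNPA1. Of the 16 genes, only Zfp536 had peaks that overlapped another list, each between ZHX1 and Zhx1-KO hnRNPA1 in single-copy sequence. One overlap covered chr7:37344429-37344528 outside the gene and the other chr7:37525063-37525291 in an intron.

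The genes through which KRAB proteins act were looked at as a list of 19. Of these 11 had a peak, 3 in control ZHX1, 5 in control hnRNPA1 and 10 in Zhx1-KO hnRNPA1. For a list of 19 genes these counts are at or below the shares of all protein-coding genes (40.5%, 31.2% and 57.7%), and no difference between lists is read from them. Trim28, the corepressor itself, had none. Setdb1, its histone methyltransferase partner, had a control hnRNPA1 peak over coding sequence (chr3:95338432-95338894) and 2 Zhx1-KO hnRNPA1 peaks elsewhere. Cbx1, Cbx3 and Cbx5 encode heterochromatin proteins. Cbx1 had no peak, Cbx3 had 1 Zhx1-KO hnRNPA1 peak 0.213 kb from a TSS, and Cbx5 had 1 over coding sequence (chr15:103199644-103199933).

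Zfp peaks lay in multi-copy sequence more often than peaks at large. Sequence with a median of at least 2 copies was counted as multi-copy. Of control ZHX1 Zfp peaks 34.5% (29.6% to 39.8%) were multi-copy beside 25.3% of the whole list, of control hnRNPA1 38.1% (31.6% to 45.1%) beside 24.5%, and of Zhx1-KO hnRNPA1 42.0% (38.5% to 45.6%) beside 31.4%. In each list the background lay below the interval.

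**Figure D4:**
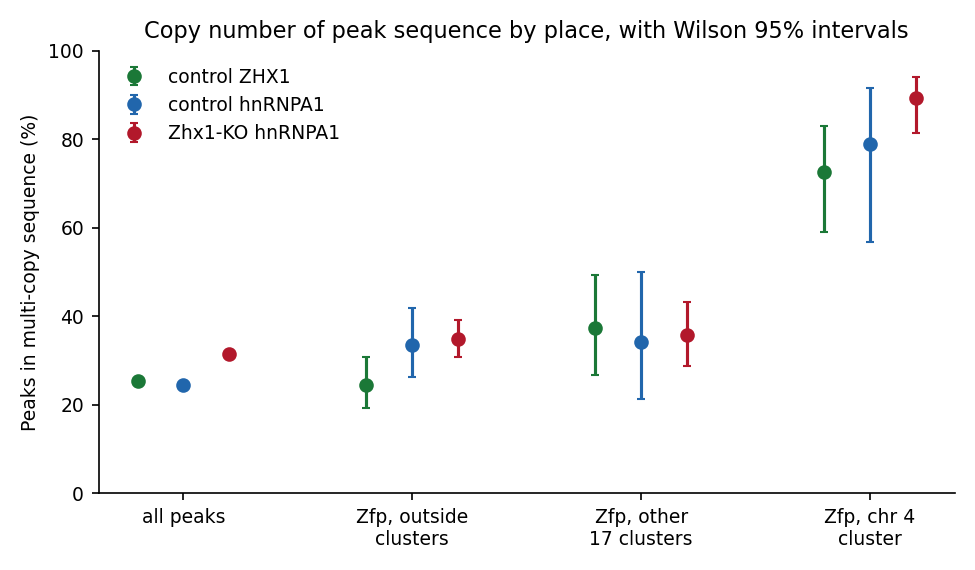
Share of peaks in multi-copy sequence (percent) for all peaks and for Zfp peaks by place, with the lists in colour and bars for Wilson 95% intervals. Zfp peaks of the chromosome 4 cluster lie at 72.5% to 89.4%, above those of the other places.

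Multi-copy peaks were most frequent in the chromosome 4 cluster. There 37 of 51 control ZHX1 Zfp peaks (72.5%, 59.1% to 82.9%), 15 of 19 of control hnRNPA1 (78.9%, 56.7% to 91.5%) and 84 of 94 of Zhx1-KO hnRNPA1 (89.4%, 81.5% to 94.1%) were multi-copy. Their median copy number was 4, and for 118 of the 136 multi-copy peaks over 50% of the copies lay inside the cluster itself. In 91 of them all copies did. Without this cluster the shares were 27.6% (22.7% to 33.1%), 33.7% (27.1% to 41.0%) and 35.0% (31.5% to 38.8%), so the interval of the ZHX1 list then held its background. The background of control hnRNPA1 (24.5%) still lay below its interval, and that of Zhx1-KO hnRNPA1 (31.4%) just below. The authors had removed reads without a unique position, and the part of that step in these counts was not tested.

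Overlap between lists of at least 1 base is the comparison the design allows, since the study asked whether ZHX1 and hnRNPA1 share sites and whether hnRNPA1 sites change without Zhx1. Of the 194 control hnRNPA1 Zfp peaks, 14 (7.22%, 4.35% to 11.7%) overlapped a ZHX1 peak, where 4.12% of the whole list did. Of the same peaks 11 (5.67%, 3.20% to 9.87%) overlapped a Zhx1-KO hnRNPA1 peak, beside 4.41%. Of the 330 ZHX1 Zfp peaks, 24 (7.27%, 4.94% to 10.6%) overlapped a Zhx1-KO hnRNPA1 peak, beside 4.42%. The shared positions were thus a small part of each list, and counted this way round the background lay below the interval for both pairs with ZHX1.

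As shares of the other list of each pair the numbers were lower. Of the ZHX1 Zfp peaks 14 (4.24%, 2.54% to 6.99%) overlapped control hnRNPA1, beside 2.60% of all, which lies inside the interval, so for the control pair the difference from background did not hold in this direction. Of the 736 Zhx1-KO hnRNPA1 Zfp peaks 24 (3.26%, 2.2% to 4.81%) overlapped ZHX1, beside 1.99%, and 12 (1.63%, 0.935% to 2.83%) overlapped control hnRNPA1, beside 1.26%.

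**Figure D5:**
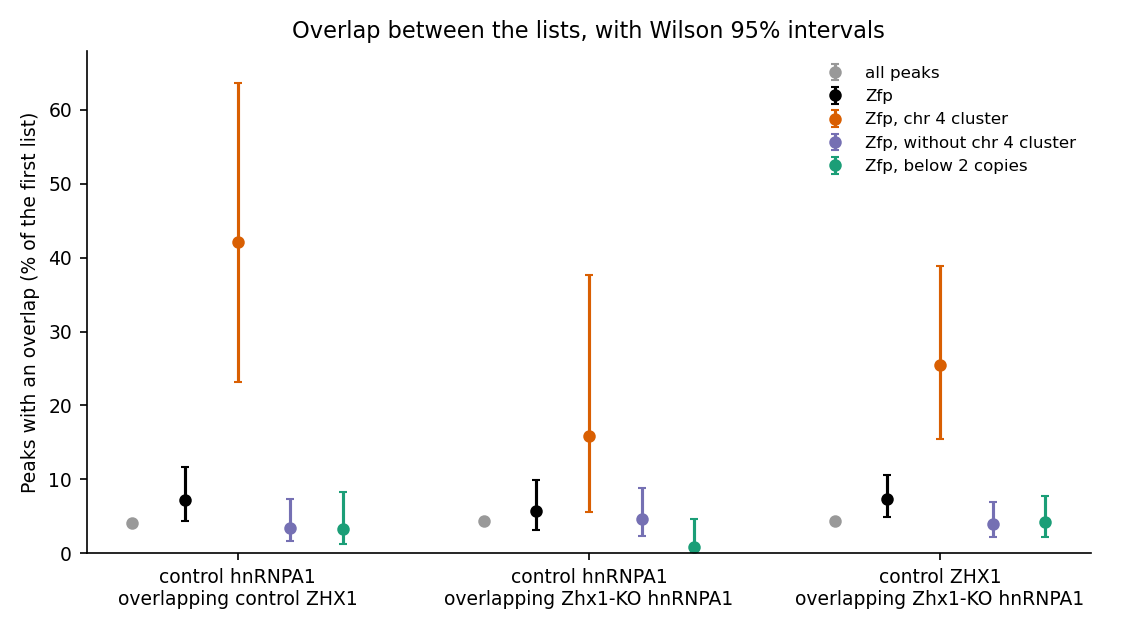
Share of peaks with an overlap (percent of the first list) for all peaks, Zfp peaks, Zfp peaks of the chromosome 4 cluster, Zfp peaks without it and Zfp peaks below 2 copies, with bars for Wilson 95% intervals. The cluster reaches 42.1%, and without it Zfp peaks lie between 3.43% and 4.57%.

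Here too the chromosome 4 cluster stood apart. Of its 19 control hnRNPA1 Zfp peaks 8 (42.1%, 23.1% to 63.7%) overlapped ZHX1 and 3 (15.8%, 5.52% to 37.6%) overlapped Zhx1-KO hnRNPA1, and of its 51 ZHX1 Zfp peaks 13 (25.5%, 15.5% to 38.9%) overlapped Zhx1-KO hnRNPA1. Without the cluster the shares over Zfp peaks were 3.43% (1.58% to 7.28%) for control hnRNPA1 with ZHX1, 4.57% (2.33% to 8.76%) for control with Zhx1-KO hnRNPA1 and 3.94% (2.22% to 6.92%) for ZHX1 with Zhx1-KO hnRNPA1. All 3 intervals then held the background of the whole list. Over all peaks of the cluster, whatever their name, 15 of 48 control hnRNPA1 peaks (31.2%, 19.9% to 45.3%) overlapped ZHX1 while 5 (10.4%, 4.53% to 22.2%) overlapped Zhx1-KO hnRNPA1. The latter list had 218 peaks there and the ZHX1 list 109.

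Overlap also moved with copy number, in Zfp peaks as in all peaks. Among multi-copy Zfp peaks 13.5% (7.51% to 23.1%) of control hnRNPA1 overlapped ZHX1 and the same share overlapped Zhx1-KO hnRNPA1, where 11% and 12.5% of all multi-copy peaks of the list did. Of the Zfp peaks below 2 copies 3.33% (1.30% to 8.26%) overlapped ZHX1, beside 1.91%, and 0.833% (0.147% to 4.57%) overlapped Zhx1-KO hnRNPA1, beside 1.78%. For ZHX1 with Zhx1-KO hnRNPA1 the multi-copy share was 13.2% (8.14% to 20.6%) beside 10.6%, and that below 2 copies 4.17% (2.21% to 7.73%) beside 2.34%. For each of these 6 values the interval held the share of all peaks of the same copy class. Outside the cluster and below 2 copies, 2 of 116 control hnRNPA1 Zfp peaks overlapped ZHX1 and 0 overlapped Zhx1-KO hnRNPA1, which allows a share of up to 2.59% if 3 counts are taken as the limit of a count of 0, and 3.21% by the Wilson interval.

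Merged over lists, the Zfp peaks formed 1214 positions, of which 41 (3.38%, 2.50% to 4.55%) held Zfp peaks of 2 or 3 lists, beside 2.33% of the positions formed by all peaks. ZHX1 and Zhx1-KO hnRNPA1 shared 20, both control lists 10, both hnRNPA1 lists 7 and all lists 4. The chromosome 4 cluster held 20 of the 41, the other clusters 7 and the rest of the genome 14. At 30 of the 41 positions at least 1 peak was multi-copy. The 11 others included positions named Zfp354c, Zfp3, Zfp386, Zfp746, Zfp638, Zfp536 (at 2 positions), Zfp810, Zfp985 and Zfp992. This split was not made over the positions of all peaks and is not read as a result about Zfp names. Over all peaks, 393 of the 604 control hnRNPA1 peaks that overlapped ZHX1 were multi-copy. Of the 1027 ZHX1 peaks that overlapped Zhx1-KO hnRNPA1, 621 were.

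A few of the single-copy positions lay near a gene start. At Zfp746 a Zhx1-KO hnRNPA1 peak (chr6:48085880-48086561) enclosed a ZHX1 peak (48086046 to 48086324) in the non-coding part of an exon with the nearer centre 0.326 kb from a TSS. At Zfp638, which encodes a splicing-associated nuclear protein, the same pair of lists met in the non-coding part of an exon with the nearer centre 0.447 kb from a TSS (Zhx1-KO hnRNPA1 at chr6:83914612-83915077, ZHX1 at 83914745 to 83914974). Control hnRNPA1 had no peak at either place. At Zfp810, whose common sequence is printed above, ZHX1 (chr9:22306279-22306735) and control hnRNPA1 (22306216 to 22306454) met and no Zhx1-KO hnRNPA1 peak was listed. As depth is unknown and each group had 1 library, an unlisted peak is no measure of absent binding.

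Inside the chromosome 4 cluster the positions of both control lists were at Zfp980, Zfp991, Zfp600, Zfp992, Zfp981 and Zfp534. At Zfp992 the peaks covered chr4:146455412-146455815 (ZHX1) and 146455326 to 146455785 (hnRNPA1), shared 374 bases of an intron and were single copy. ZHX1 and Zhx1-KO hnRNPA1 met at 11 further positions of the cluster, among them the coding position of Zfp600.

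Most Zfp peaks were centred outside the named gene, 64.2% (58.9% to 69.2%), 67.0% (60.1% to 73.2%) and 64.8% (61.3% to 68.2%) in list order, beside 65.2%, 65.7% and 66.4% of all peaks. Introns held 27.0%, 25.3% and 27.9%, beside 26.6%, 26.9% and 25.3%. Within 2 kb of a TSS lay 40 of the ZHX1 peaks (12.1%, 9.03% to 16.1%) beside 9.78% of all peaks. For control hnRNPA1 17 (8.76%, 5.54% to 13.6%) lay there beside 8.24%, and for Zhx1-KO hnRNPA1 51 (6.93%, 5.31% to 9%) beside 8.40%. All 3 TSS intervals held their background. In clusters the TSS share was 17.8% (11.9% to 25.7%) for ZHX1 and 15.8% (8.54% to 27.4%) for control hnRNPA1, and 7.34% (4.75% to 11.2%) for Zhx1-KO hnRNPA1. Outside clusters it was 8.96% (5.81% to 13.6%), 5.84% (2.99% to 11.1%) and 6.71% (4.79% to 9.32%) in list order. Clusters are defined by neighbouring genes, and no share over all peaks in clusters was set beside these values. Differences between the lists were not tested.

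Few Zfp peaks lay over coding sequence, counted here whether or not it encodes fingers. Of control ZHX1 Zfp peaks 13 (3.94%, 2.32% to 6.62%) were centred over coding sequence of the named gene, beside 2.23% of all peaks. For control hnRNPA1 6 were (3.09%, 1.43% to 6.58%) beside 1.87%, and for Zhx1-KO hnRNPA1 25 (3.40%, 2.31% to 4.97%) beside 2.47%. Only the ZHX1 background lay below its interval, by a small margin, and this did not hold when any coding base was counted (5.45%, 3.48% to 8.46%, beside 4.59% of all peaks). The 44 peaks fell in 40 genes, 5 were multi-copy and 2 overlapped another list, both at the Zfp600 position.

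The finger linker printed for Zfp600 was found in 20 Zfp peaks, of which 9 were not centred over coding sequence. The other 11 were among the 44 coding peaks. They were Zfp748, Zfp600, Zfp235 and Zfp617 for ZHX1, Zfp930 for control hnRNPA1, and Zfp935, Zfp251, Zfp472, Zfp600, Zfp985 and Zfp872 for Zhx1-KO hnRNPA1, with up to 4 matches in a peak. Apart from Zfp600 (12 and 11 copies) and Zfp985 (3) these peaks were single copy. Over the central 200 bases of a peak, on both strands, 1.21% of ZHX1, 1.55% of control hnRNPA1 and 1.49% of Zhx1-KO hnRNPA1 Zfp peaks held the linker, beside 0.120%, 0.102% and 0.0912% of all peaks. A like difference is built into the choice of Zfp names, since the linker is part of the protein family.

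TAGGG, in the same window and on both strands, was found in 28.5% (23.9% to 33.6%), 33% (26.8% to 39.9%) and 25.0% (22.0% to 28.3%) of the Zfp peaks in list order. All peaks held it in 25.7%, 27.1% and 25.9%. CCAAT, the site of the factor NF-Y, was in 27.3% (22.7% to 32.3%), 29.4% (23.4% to 36.1%) and 29.9% (26.7% to 33.3%), beside 27.4%, 27.2% and 28.3%. Every interval held the share of the whole list. A match is a run of letters and not a shown binding site.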

How the data were processed

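ChIP-seq peak lists from 1 library per group were analysed. The authors trimmed reads with cutadapt 1.18, aligned to GRCm38 using Bowtie2 2.3.5.1 and dropped unmapped, not uniquely mapped and duplicate reads. BWA 0.7.12-r1039 and deepTools 3.3.0 are also named in the submitters' processing notes. Not given in the sources used here are the peak caller, its threshold and the use of inputs. The deposited values are peak starts and ends, with no score or count. Wherever peaks were ranked, width was used.

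Members and gene lists were chosen with earlier results of these data known. Positions are 1-based. Genes and TSS came from GENCODE M21, in which 2 Zfp names (19 peaks) were not found, and the count of protein-coding genes from RefSeq GRCm38.p6. Copy numbers used the RefSeq C57BL/6J primary assembly. A peak was placed in a gene or cluster by its centre. Overlap and cluster steps were tested on simulated data. Named genes were the 10 with the most peaks, those at positions of all lists but 1, those at the 5 widest peaks of each list, the 5 leading clusters, the role list and up to 5 KRAB partners. Without replicates no tests were made, and shares were set beside all peaks of the list. Genes at shared positions and coding peaks, and leading genes of clusters, were named after their values were seen. Work was done in Python 3.11.15 with Biopython 1.88, matplotlib 3.10.9, numba 0.67.0, scipy 1.17.1, pandas 2.3.3 and numpy 2.4.6. Of the shared positions, 1 is not reported here.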

Additional observations from a re-analysis of the deposited data

How the results depend on the processing

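Of 42 alternative values 18 stayed within the interval of the reported value and 24 did not. Members by position, meaning peaks within 2 kb of or inside an annotated Zfp gene, were 0.766%, 0.634% and 0.774% of the lists in list order. Peaks of at least median width gave 1.61% for ZHX1, and the 14662 widest peaks of each list gave 1.61% for Zhx1-KO hnRNPA1. With peaks of at least median width, overlap with Zhx1-KO hnRNPA1 was 2.15% for control hnRNPA1 and 4.28% for ZHX1. For control hnRNPA1 with ZHX1 the same setting gave a higher share than reported, 9.68% (9 of 93), which stayed within the interval. No share over all peaks of that width was set beside these values. Below 2 copies, overlap was 3.33% for control hnRNPA1 with ZHX1, 0.833% for control with Zhx1-KO hnRNPA1 and 4.17% for ZHX1 with Zhx1-KO hnRNPA1. Without the chromosome 4 cluster, chosen after seeing the data, overlap with ZHX1 was 3.43% and that of ZHX1 with Zhx1-KO hnRNPA1 3.94%, and multi-copy shares were 27.6% for ZHX1 and 35.0% for Zhx1-KO hnRNPA1. Cluster gaps of 250 kb put 25.5%, 22.2% and 24.5% of Zfp peaks in clusters. A copy limit of 5 made 22.7%, 22.7% and 26.9% multi-copy, and 50-base words 27.0%, 30.9% and 33.7%. Shares over all peaks were not taken at these 2 settings, so the backgrounds given above do not apply to them. Any coding base gave 6.25% (4.72% to 8.24%) for Zhx1-KO hnRNPA1, an interval that held the 4.88% of all peaks of that list. The ZHX1 share was then 5.45% (3.48% to 8.46%), and its interval held the background of 4.59%. The cause of these shifts was not tested beyond how each alternative is built. No paired analysis was possible because each group had 1 library. Depth is unknown, so a list without a peak does not show a site without protein.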

Other observations

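Other zinc finger series were counted by symbol for their peaks and copy number, where list order is ZHX1, then hnRNPA1 in control, then hnRNPA1 in Zhx1-KO. Zbtb genes, whose proteins pair a BTB domain with zinc fingers, were named by 26, 16 and 54 peaks in list order, of which 11.5% (4% to 29.0%), 12.5% (3.50% to 36.0%) and 9.26% (4.02% to 19.9%) were multi-copy. Zscan genes, which add a SCAN domain, were named by 18, 11 and 48 peaks, of which 77.8% (54.8% to 91.0%), 81.8% (52.3% to 94.9%) and 72.9% (59.0% to 83.4%) were multi-copy. Zkscan genes, which carry both KRAB and SCAN domains in many cases, had 10, 6 and 24 peaks of which 2, 1 and 6 were multi-copy. An overlap with either other list was found for 2, 0 and 2 of the Zbtb peaks, 3, 3 and 3 of the Zscan peaks and 0 of the Zkscan peaks in any list. These were 7.69%, 0% and 3.70% of Zbtb peaks and 16.7%, 27.3% and 6.25% of Zscan peaks, beside 10.3%, 10.8% and 4.35% of Zfp peaks. The share over all peaks was not counted in this way. With 41, 16 and 11 protein-coding genes the Zbtb, Zscan and Zkscan series are small, and their differences were not tested.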
